A study of Mus musculus with 12 samples.

Results

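Both miR-223 oligonucleotides, the mimic pre-miR-223 and the inhibitor anti-miR-223, were set together against the scramble control. The 4 pre-miR-223 arrays and replicates 1 to 3 of anti-miR-223 made up one side, 7 arrays, and the 4 scramble arrays the other; anti-miR-223 replicate 4 was left out because it stood apart from the rest. Genes entered if their signal, averaged over these 11 of 12 arrays, lay above log2 4, which kept 6911 of 22180 genes (31.2%). The level, not the difference between groups, chose the genes: Zfp142 at 4.0, C1qtnf4 at 4.001 and Zfp651 at 4.002 were just inside, and Jade2, Cgrrf1 and Tbc1d2, all at 4.0 when rounded, just outside. The pooling itself and the array left out were chosen from measured values.

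The study profiled RAW 264.7, an adherent mouse monocyte/macrophage line made by Abelson murine leukemia virus transformation, on Affymetrix whole-transcript arrays. Cells were seeded at 10000 per cm2, grown to confluence and transfected, and every array was taken at 48 h. The 3 groups differed only in the oligonucleotide: an irrelevant scramble, pre-miR-223 or anti-miR-223. No untransfected cells were analysed here, so all groups carried an oligonucleotide and had gone through transfection. All arrays came from 1 cell line, and the titles call the replicates biological without naming separate cultures; p-values therefore measure the spread between these arrays, which may be technical.

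MicroRNAs are loaded into Argonaute proteins and pair, mainly through their seed, with sites in messenger RNAs, which lowers translation and the level of the message. miR-223 is a microRNA of myeloid cells, with a role in granulocyte differentiation and in the restraint of inflammatory signalling, and its reported targets include the transcription factor Mef2c and the inflammasome sensor Nlrp3. A mimic adds miR-223 activity and an inhibitor binds the endogenous strand, so the agents are aimed in opposite directions, and the pooled comparison asks which genes lay on the same side of scramble with both. The mature strands of the microRNA are shown because both oligonucleotides are named after it, with bases 2 to 8, the seed, in capitals (RefSeq, GRCm38.p6, chromosome X, plus strand, 96242884 to 96242905 for the 3p strand and 96242842 to 96242864 for the 5p strand).
mmu-miR-223-3p: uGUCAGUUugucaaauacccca
mmu-miR-223-5p: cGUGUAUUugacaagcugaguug
Among 1738 mature mouse microRNAs in the RefSeq table, the 3p seed occurred in 1, miR-223-3p itself. The sequences of the mimic, the inhibitor and the scramble are not given in the sources used here. The array has a probe set shared by Mir223 and another transcript, which was not used because it carries several symbols, so the level of miR-223 was not checked.

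The labelled cell type was checked against marker genes. Of 14 macrophage markers measured, 11 lay above log2 4, with Lyz2 at 11.18, Cd68 at 9.79, Cd14 at 9.53, Tyrobp at 9.34 and Csf1r at 9.13, while Mertk (2.43), Mrc1 (1.86) and Cd84 (1.70) lay below. The mean level of all 14 was 7.17 to 7.38 in scramble, 6.93 to 7.32 in pre-miR-223, 6.99 to 7.26 in the anti-miR-223 arrays used and 7.61 in the array left out. None of 7 fibroblast, 5 epithelial, 4 lymphocyte or 5 neutrophil markers lay above log2 4; their means ran from 1.42 to 3.56. The array left out had a median correlation with the others, across genes, of 0.897, against 0.973 to 0.987 for the other 11 arrays, and 497 of its genes differed by over 2-fold from the mean of the 12 arrays, where no other array had more than 29. Within groups the median SD of a gene was 0.14 for scramble, 0.16 for pre-miR-223 and 0.15 for anti-miR-223 on the log2 scale, and the median 95% confidence interval of a pooled difference reached 0.22 to either side.

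No gene was called between the pooled oligonucleotides and scramble, but the differences leaned one way. Calls were made in limma at 0.05 on the p adjusted by Benjamini-Hochberg; 0 of 6911 genes (0.0%) passed, the lowest adjusted p was 0.375, and an ordinary linear model also called 0, with 647 genes at an unadjusted p under 0.05. In limma 910 genes lay at an unadjusted p under 0.05: 852 lower (12.3% of all tested) and 58 higher (0.839%) with the oligonucleotides. That count depended on single arrays: it was 295 when scramble replicate 2 was left out, 563 for scramble replicate 1 and 1597 for pre-miR-223 replicate 2, and 195 with anti-miR-223 replicate 4 included. The median difference over all 6911 genes, oligonucleotides minus scramble, was -0.11 on the log2 scale, with 5730 genes (82.9%) lower and 1181 (17.1%) higher; 10% of the differences lay below -0.26 and 10% above 0.04. Bounds on the pooled difference were narrow: the 95% interval left out a 1.5-fold difference in either direction for 93.1% of genes and a 2-fold one for 99.4%. These intervals are for the mean over mimic and inhibitor arrays together and do not bound the effect of either oligonucleotide alone.

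**Figure D1:**
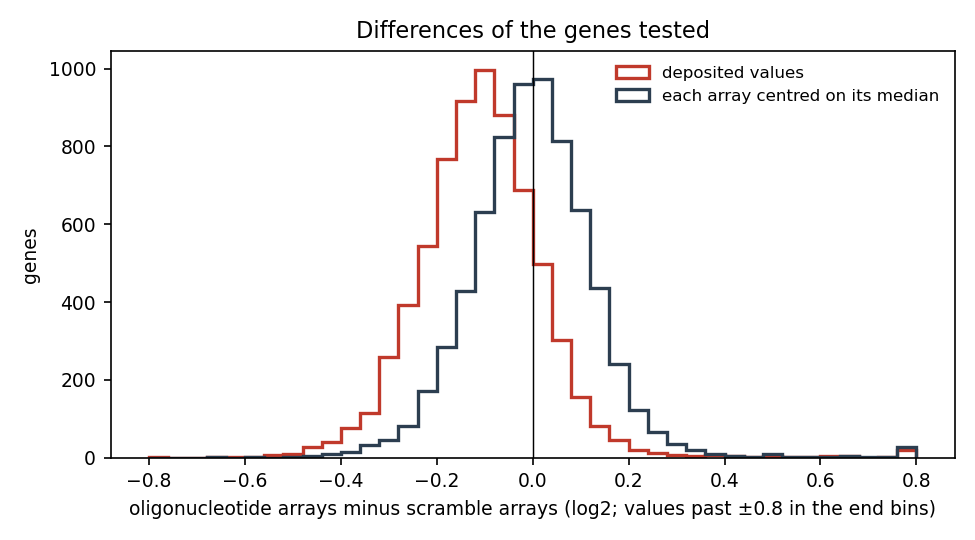
Distribution of the differences of 6911 genes, oligonucleotides minus scramble, on the log2 scale, as deposited and after each array was centred on its own median. As deposited the distribution lies around -0.11, and after centring around 0.

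The shift could be read in the arrays themselves. The median level of the 6911 genes was 5.67, 5.82, 5.67 and 5.68 in scramble replicates 1 to 4. It was 5.60, 5.77, 5.55 and 5.50 in pre-miR-223 replicates 1 to 4, and 5.55, 5.54 and 5.72 in anti-miR-223 replicates 1 to 3. Thus 5 of 7 oligonucleotide arrays lay below every scramble array, and pre-miR-223 replicate 2 and anti-miR-223 replicate 3 lay within the scramble range. The mean difference of -0.11 did not pass an exact two-sided permutation test over the 330 splits of 7 against 4 arrays (p = 0.109; the smallest p these splits allow is 0.00606). Anti-miR-223 replicate 4 was the highest of all arrays, at 5.97, and with it the difference was -0.06 (exact permutation p = 0.485).

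**Figure D2:**
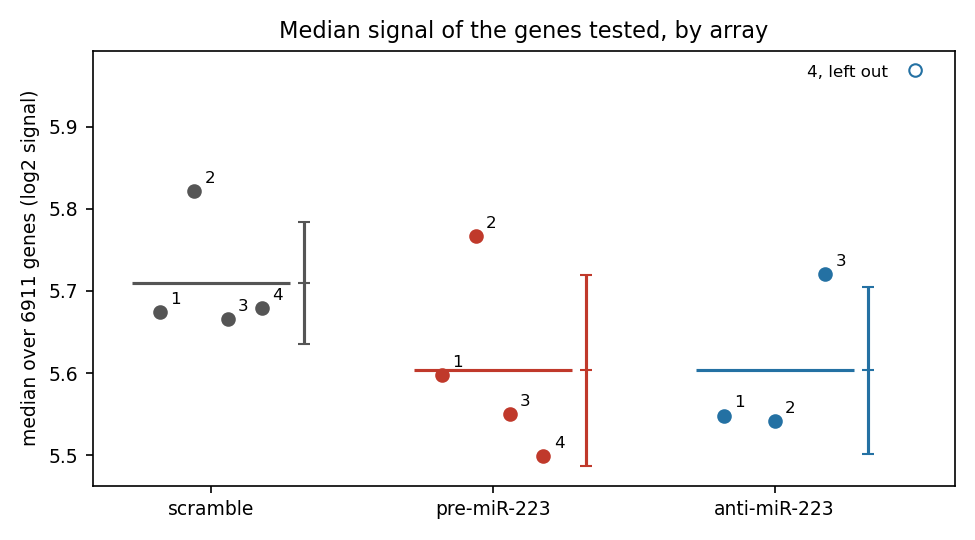
Median log2 level of the 6911 genes in each array (points with the replicate number), by group, with the mean (line) and SD (bar) of 4, 4 and 3 arrays; anti-miR-223 replicate 4, left out, is an open point. The scramble arrays lie at 5.67 to 5.82 and 5 of 7 oligonucleotide arrays lie at 5.50 to 5.60.

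Centring each array on its median moves the differences of all genes by the same amount, the mean array difference of -0.107. A median near 0 and a near-even split therefore follow from the step itself. The median difference was then -0.00, with 278 genes higher and 279 lower at an unadjusted p under 0.05. The share lower moved from 93.6% to 50.1%. All 58 higher genes, whose differences centring enlarged, and 279 of the 852 lower ones stayed past that level. The shift was measured in genes above the level filter; below it the median difference was 0.02 for 7436 genes at log2 0 to 2, 0.01 for 5801 at 2 to 3 and -0.06 for 2032 at 3 to 4. The differences below are given as deposited, with the value after centring beside them. Since 82.9% of all genes were lower, and 12.3% lower at an unadjusted p under 0.05, counts within a gene group are read against these shares.

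The genes with the smallest p on the lower side were Atp13a1, Lmf2, Jmjd8, Itpa, Deaf1, Nfkbid, Ndufaf7 and Slc16a12. Atp13a1, a P5-type ATPase that clears misplaced membrane helices from the endoplasmic reticulum, read 5.01, 5.11, 5.04 and 5.08 in scramble, 4.60, 5.01, 4.46 and 4.33 in pre-miR-223, and 4.40, 4.49 and 4.67 in anti-miR-223. Every oligonucleotide array lay below every scramble array, pre-miR-223 replicate 2 by the least. The difference was -0.50 (95% interval -0.73 to -0.26, limma adjusted p = 0.375) and -0.39 after centring. The 28 genes named by rule all had this adjusted p of 0.375, and the genes given as examples had 0.375 or more. Lmf2, a lipase maturation factor of the endoplasmic reticulum, read 5.49, 5.68, 5.32 and 5.52 in scramble, 5.03, 5.25, 4.89 and 4.90 in pre-miR-223, and 5.07, 4.90 and 5.42 in anti-miR-223. Anti-miR-223 replicate 3 lay within the scramble range and the other 6 arrays below it; the difference was -0.44 (95% interval -0.67 to -0.20), -0.33 after centring. Jmjd8, a JmjC-domain protein of the same compartment, read 4.71, 4.98, 5.24 and 4.72 in scramble, 4.69, 4.60, 4.36 and 4.39 in pre-miR-223, and 4.31, 4.36 and 4.61 in anti-miR-223. Its groups did not overlap, though pre-miR-223 replicate 1 lay just under the lowest scramble array; the difference was -0.44 (95% interval -0.67 to -0.20), -0.33 after centring, and -0.33 as deposited without scramble replicate 3.

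Itpa, which hydrolyses inosine triphosphate, read 4.70, 4.99, 4.76 and 4.70 in scramble, 4.27, 4.63, 4.55 and 4.31 in pre-miR-223, and 4.43, 4.20 and 4.48 in anti-miR-223. Its groups did not overlap, and the difference was -0.38 (95% interval -0.58 to -0.17), -0.27 after centring. Ndufaf7, an assembly factor of respiratory complex I, read 4.75, 5.0, 4.68 and 4.82 in scramble, 4.17, 4.53, 4.65 and 4.63 in pre-miR-223, and 4.23, 4.04 and 4.35 in anti-miR-223. All 7 oligonucleotide arrays again lay below scramble, with a difference of -0.44 (95% interval -0.70 to -0.19), -0.33 after centring. Deaf1, a transcription factor, read 5.20, 5.15, 4.80 and 4.99 in scramble, 4.61, 4.78, 4.70 and 4.59 in pre-miR-223, and 4.69, 4.73 and 4.80 in anti-miR-223. Anti-miR-223 replicate 3 met the lowest scramble array, and the difference was -0.34 (95% interval -0.52 to -0.15), -0.23 after centring. Nfkbid, an atypical inhibitor protein of NF-kB, read 5.09, 5.09, 5.08 and 5.26 in scramble, 4.62, 5.11, 4.64 and 4.70 in pre-miR-223, and 4.45, 4.58 and 4.89 in anti-miR-223. Only pre-miR-223 replicate 2 reached the scramble range; the difference was -0.41 (95% interval -0.65 to -0.18), -0.31 after centring. Slc16a12, a solute carrier of the monocarboxylate transporter family, read 4.45, 4.52, 4.21 and 4.11 in scramble, 4.13, 4.12, 3.78 and 3.79 in pre-miR-223, and 3.84, 3.79 and 4.06 in anti-miR-223. Pre-miR-223 replicates 1 and 2 lay within the scramble range, and the difference was -0.39 (95% interval -0.62 to -0.17), -0.29 after centring. This gene passed the level filter through scramble, with group means of 4.32 in scramble and 3.93 with the oligonucleotides, so it lay near the lower limit of the genes tested.

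**Figure D3:**
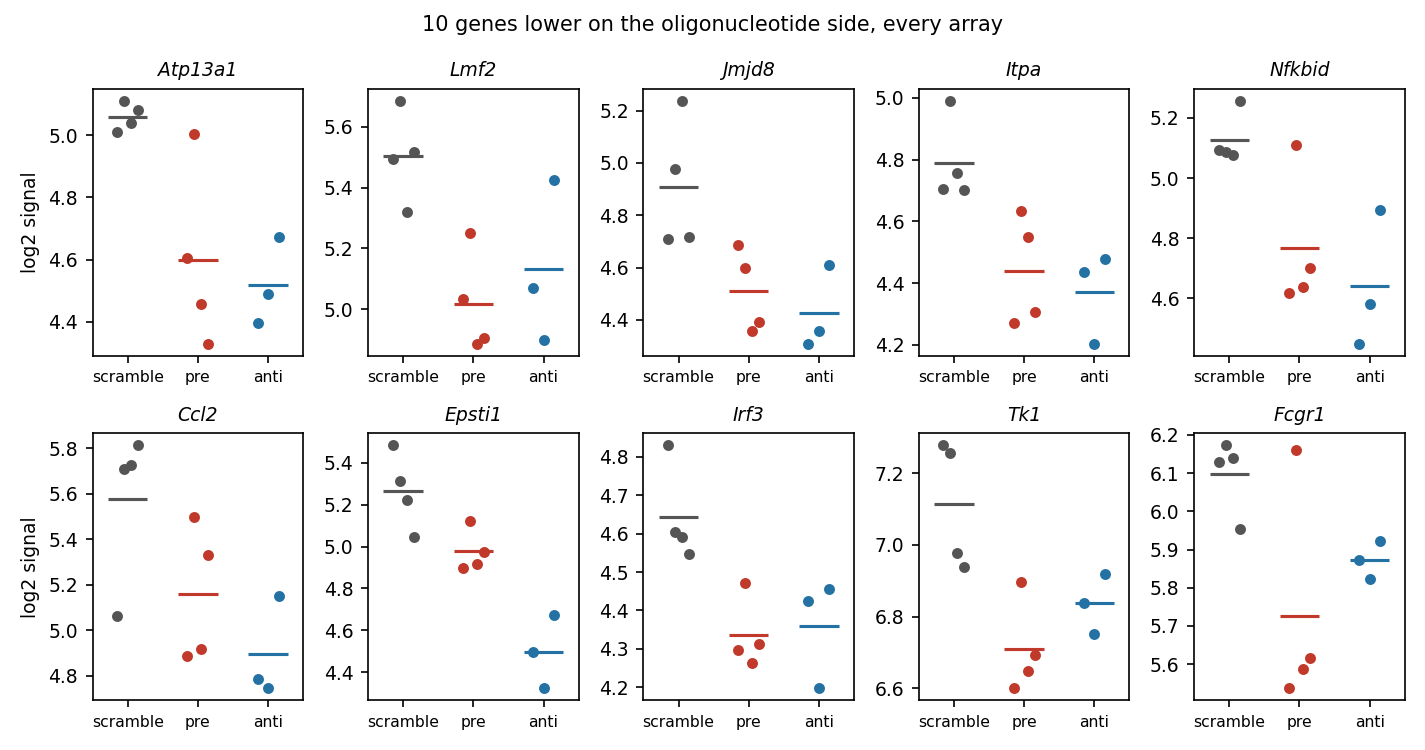
Log2 level in each array (points) of 10 genes lower with the oligonucleotides, grouped as scramble, pre-miR-223 and anti-miR-223, with the mean of each group (line). Pre stands for pre-miR-223 and anti for anti-miR-223. The pooled oligonucleotide arrays of Atp13a1, Jmjd8, Itpa, Irf3 and Tk1 do not overlap scramble, and pre-miR-223 replicate 2 lies nearest to scramble in Atp13a1 and Nfkbid.

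Complete separation of the groups was rare and almost always on the lower side. In 43 genes (0.622% of those tested) every oligonucleotide array lay below every scramble array, and in 1 gene (0.0145%) above. The 43 differences ran from -0.50 to -0.12 with a median of -0.27, and 39 had an unadjusted limma p under 0.05. Centring takes the mean array difference, -0.107, off every gene's difference. All 43 lay below that value, so 43 of 43 staying lower was fixed by their size. Nedd8, for one, was at -0.01 after centring. Mmgt2 passed the level filter through scramble, with group means of 4.21 in scramble and 3.92 with the oligonucleotides. In 9 of the 43, anti-miR-223 replicate 4, the array left out, also lay below all scramble arrays. The 43 held genes of several compartments: Fmnl1, a formin that assembles actin (-0.35), Ercc4, an endonuclease of nucleotide excision repair (-0.34), Ckb, brain-type creatine kinase (-0.31), Pdxk, pyridoxal kinase (-0.28), Mdh1, cytosolic malate dehydrogenase (-0.26), Lmna, the A-type lamin (-0.24), and Cfp, properdin of the alternative complement pathway (-0.24). Cx3cr1, the fractalkine receptor of monocytes, read 7.99, 7.98, 7.86 and 7.83 in scramble, 7.73, 7.80, 7.58 and 7.60 in pre-miR-223, and 7.63, 7.56 and 7.80 in anti-miR-223. The highest oligonucleotide arrays came within 0.03 of the lowest scramble array, and the difference was -0.24 (95% interval -0.42 to -0.07), -0.14 after centring. Rprd1a, which binds the tail of RNA polymerase II, was the 1 gene above: scramble read 6.09, 6.26, 6.22 and 6.13, pre-miR-223 6.38, 6.28, 6.29 and 6.35, and anti-miR-223 6.33, 6.45 and 6.27. Its difference was 0.16 (95% interval 0.00 to 0.32), 0.27 after centring.

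The larger differences were nearly all upward and rested on scramble replicates 1 and 2. Of 36 genes over 1.5-fold apart, 33 were higher with the oligonucleotides and 3 lower (Mpc1 at -0.78, Gm12508 at -0.67 and 2610528A11Rik at -0.62). All 12 genes over 2-fold were higher. The level filter averaged all 11 arrays, so a gene low in scramble could enter through the oligonucleotide arrays. Among the 33, Mir1963, Gpn3 and Olfr1463 had scramble means below log2 4, so these counts by direction are not free of the filter. In the 33, scramble replicate 2 was the lowest of the 11 arrays in 28 and replicate 1 in 5, and these 2 arrays were the lowest pair in 32. Scramble replicates 3 and 4 lay within the range of the oligonucleotide arrays in 30 and 31 of the 33. The median difference of the 33 was 0.89, and without scramble replicates 1 and 2, an alternative chosen after seeing the data, it was 0.28, with 32 still higher, 2 over 1.5-fold and 1 at an unadjusted p under 0.05. Anti-miR-223 replicate 4 lay below all 11 arrays in 32 of the 33.

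Mettl7a3, a methyltransferase-like gene with near copies, shows the pattern: 5.16, 4.37, 8.78 and 8.45 in scramble, 9.87, 8.42, 9.85 and 10.25 in pre-miR-223, and 8.93, 8.97 and 7.69 in anti-miR-223. Scramble replicates 1 and 2 lay far below every other array, and replicates 3 and 4 within the oligonucleotide range. The difference was 2.44 (95% interval 0.92 to 3.96), 1.67 without scramble replicate 2 and 0.52 without scramble replicates 1 and 2. Morf4l1-ps1, a pseudogene of a chromatin reader, read 3.99, 3.68, 5.67 and 5.45 in scramble, 7.08, 4.83, 7.05 and 7.61 in pre-miR-223, and 5.45, 6.24 and 5.12 in anti-miR-223. Its low arrays were again scramble replicates 1 and 2, with pre-miR-223 replicate 2 next; the difference was 1.5 (95% interval 0.42 to 2.58), and 0.64 without both. Chp1, a calcineurin-like calcium-binding protein, read 4.01, 4.09, 5.81 and 5.77 in scramble, 6.45, 5.50, 6.17 and 6.46 in pre-miR-223, and 5.67, 5.55 and 5.59 in anti-miR-223. The difference of 0.99 (95% interval 0.29 to 1.69) was 0.12 without both of these scramble arrays.

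Chd3, a helicase of the NuRD complex, read 4.47, 3.62, 5.83 and 5.29 in scramble, 6.17, 5.08, 6.19 and 6.01 in pre-miR-223, and 5.56, 5.89 and 5.34 in anti-miR-223; the difference of 0.95 (95% interval 0.26 to 1.63) was 0.55 without scramble replicate 2 and 0.19 without both. Ehd1, an ATPase of endosome recycling, read 5.72, 5.44, 7.09 and 6.82 in scramble, 7.60, 6.46, 7.31 and 7.86 in pre-miR-223, and 6.93, 7.03 and 6.89 in anti-miR-223; its difference of 0.88 (95% interval 0.25 to 1.51) was 0.19 without both. Cln8, which carries lysosomal enzymes out of the endoplasmic reticulum, read 4.10, 3.80, 5.58 and 5.16 in scramble, 5.47, 5.26, 5.74 and 5.74 in pre-miR-223, and 5.58, 5.33 and 5.34 in anti-miR-223; its difference of 0.84 (95% interval 0.30 to 1.38) was 0.55 without scramble replicate 2 and 0.13 without both. In these genes, too, scramble replicates 3 and 4 sat among or next to the oligonucleotide arrays. Dcakd, a dephospho-CoA kinase domain protein, read 4.21, 3.82, 4.75 and 4.36 in scramble, 5.29, 4.72, 5.09 and 5.10 in pre-miR-223, and 4.71, 5.02 and 4.35 in anti-miR-223, a difference of 0.62 (95% interval 0.24 to 0.99). Zfp747, a zinc finger gene, read 3.97, 4.08, 4.38 and 3.97 in scramble, 4.23, 4.25, 5.16 and 4.92 in pre-miR-223, and 4.66, 4.72 and 4.53 in anti-miR-223, a difference of 0.54 (95% interval 0.20 to 0.87). Without scramble replicates 1 and 2 these were 0.35 for Dcakd and 0.46 for Zfp747. Of the 8 genes named by rule on the higher side, Zfp747 depended least on that pair.

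**Figure D4:**
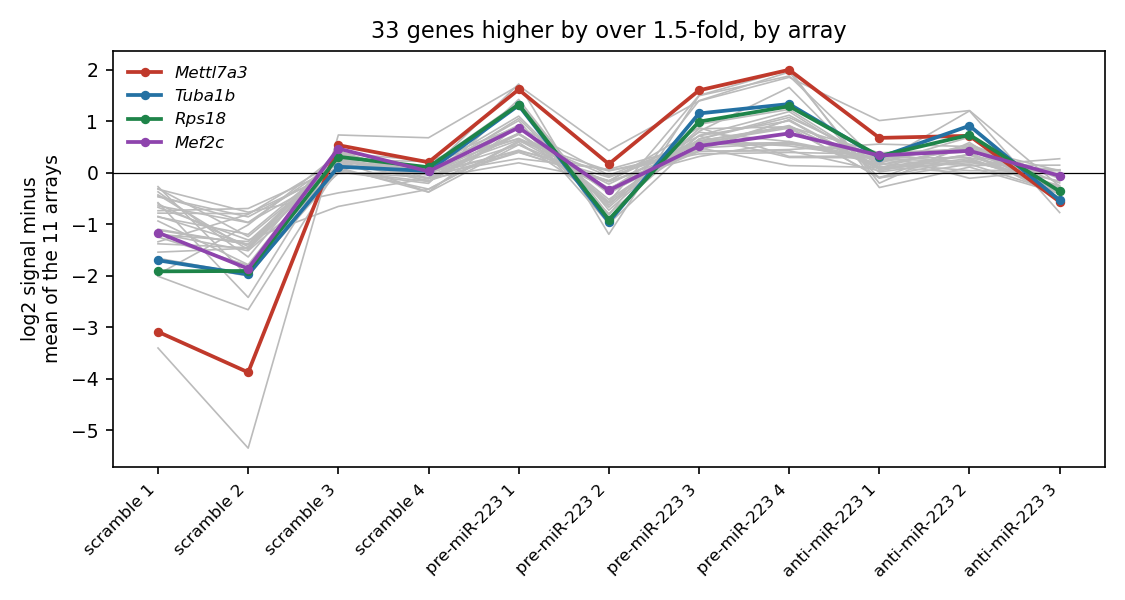
The 33 genes higher by over 1.5-fold (lines, 4 of them in colour) in each of the 11 arrays along the axis, as log2 level minus the mean of the 11 arrays. Scramble replicates 1 and 2 lie lowest in nearly all genes, scramble replicates 3 and 4 lie near the oligonucleotide arrays, and pre-miR-223 replicate 2 lies below the other pre-miR-223 arrays in the coloured genes.

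Further probe sets of the same genes mostly gave other differences. Of the 33 genes, 21 (63.6%) had at least 1 further probe set, against 526 of the genes tested (7.61%). The 25 further probe sets had a median difference of -0.08, from -0.36 to 0.44, and 0 of them passed 1.5-fold; of these, 16 lay above log2 4, with a median of -0.11 and 2 higher. For Ehd1 the further probe set gave -0.28 where the brightest gave 0.88, for Chd3 -0.11 against 0.95, and for Dcakd -0.07 against 0.62, all above log2 4. The further probe sets of Morf4l1-ps1 (level 1.88) and Cln8 (level 3.63) lay below the level filter and are not compared. For the tubulin Tuba1c the further probe set, at level 8.07, gave 0.12, where the brightest, at 8.33, gave 1.78. Tuba1c and Tuba1b (1.38) are also near-identical copies whose probes may not separate them, so their values are uncertain.

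Reported miR-223 targets had a median close to that of all genes. The agents are aimed in opposite directions, so opposite responses could cancel, and the pooled median cannot show whether targets responded. Against scramble, the target median was -0.08 with pre-miR-223 and -0.10 with anti-miR-223, beside -0.11 for all genes in each. Of 35 in the list, 25 were tested, 22 were lower and 3 higher, with 2 lower and 1 higher at an unadjusted p under 0.05; their median was -0.09, and 0.02 after centring, beside -0.11 and -0.00 for all genes. Mef2c, a transcription factor of myeloid progenitors, read 6.65, 5.95, 8.28 and 7.84 in scramble, 8.69, 7.47, 8.33 and 8.58 in pre-miR-223, and 8.15, 8.24 and 7.75 in anti-miR-223. Scramble replicates 1 and 2 were the low arrays; the difference was 0.99 (95% interval 0.26 to 1.73), 0.58 without scramble replicate 2 and 0.11 without both, and the further probe set of Mef2c gave -0.11. Nlrp3, the inflammasome sensor, read 5.83, 5.79, 5.51 and 5.62 in scramble, 5.69, 5.81, 5.33 and 5.44 in pre-miR-223, and 5.32, 5.53 and 5.75 in anti-miR-223. Its groups overlapped, with a difference of -0.14 (95% interval -0.37 to 0.10). Stmn1, the microtubule destabiliser stathmin, differed by -0.11 (95% interval -0.30 to 0.09), E2f1 by -0.08 and Cebpb by 0.11. The lower members at an unadjusted p under 0.05 were Msmo1 and the lipoprotein receptor Scarb1 (-0.30). The microRNA machinery, with the processing enzymes Dicer1 (-0.15) and Drosha (-0.14) and the effector Ago2 (-0.07), had 17 of 18 tested members lower, 0 at an unadjusted p under 0.05 in either direction, and a median of -0.10, 0.00 after centring.

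Chemokines had the lowest median of the lists. All 7 chemokines tested of 20 in the list were lower as deposited and after centring, 3 of them at an unadjusted p under 0.05, with a median of -0.25, -0.14 after centring and -0.25 with anti-miR-223 replicate 4 included. Ccl2, the main attractant of monocytes, read 5.06, 5.71, 5.73 and 5.81 in scramble, 4.89, 5.50, 4.92 and 5.33 in pre-miR-223, and 4.79, 4.75 and 5.15 in anti-miR-223. Scramble replicate 1 lay with the oligonucleotide arrays and the other 3 scramble arrays above all of them; the difference was -0.53 (95% interval -0.87 to -0.19), -0.42 after centring and -0.70 without scramble replicate 1. Cxcl14, a chemokine of the CXC family, read 5.92, 5.67, 5.70 and 5.80 in scramble, 5.31, 5.57, 5.48 and 5.50 in pre-miR-223, and 5.28, 5.38 and 5.73 in anti-miR-223. Only anti-miR-223 replicate 3 overlapped scramble, and the difference was -0.31 (95% interval -0.51 to -0.10). The neutrophil attractant Cxcl2 (-0.30), Ccl3 (-0.25), Cxcl16 (-0.21), Ccl9 (-0.18) and Ccl4 (-0.18) completed the group. Receptors of chemokines and cytokines were closer to the background: 14 of 16 lower, 3 at an unadjusted p under 0.05, median -0.16 and -0.05 after centring, with Il13ra1 at -0.36 and Il10ra at -0.22.

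The NF-kB list, genes of the pathway and its inflammatory targets, had all 17 tested members lower, 4 of them at an unadjusted p under 0.05, and a median of -0.18, -0.07 after centring; without scramble replicate 1 the median was -0.11. Nfkb2, the subunit of the non-canonical pathway, read 5.94, 5.94, 5.99 and 6.18 in scramble, 5.73, 6.00, 5.76 and 5.53 in pre-miR-223, and 5.64, 5.61 and 5.79 in anti-miR-223. Pre-miR-223 replicate 2 alone reached the scramble range; the difference was -0.29 (95% interval -0.49 to -0.09), -0.18 after centring. Nfkbie, an inhibitor of NF-kB, differed by -0.30, Gadd45b by -0.32 and the mitochondrial superoxide dismutase Sod2 by -0.24, while Tnf at -0.19 and Nfkbia at -0.11 were not past the unadjusted level. Immediate early genes, the first to respond to a stimulus, were lower in 13 of 18 with a median of -0.08, but in 5 of 18 with a median of 0.03 after centring; the median was also above 0 without scramble replicates 1 and 2, at 0.04.

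Interferon-response genes were lower in 22 of 22 tested, 8 of them at an unadjusted p under 0.05 (the background is 12.3%). After centring 19 of 22 were lower, beside 3495 of all 6911 genes. The median was -0.17, and -0.07 after centring. Epsti1, an interferon-induced gene, read 5.48, 5.31, 5.22 and 5.04 in scramble, 4.90, 5.12, 4.92 and 4.97 in pre-miR-223, and 4.50, 4.32 and 4.67 in anti-miR-223. Only pre-miR-223 replicate 2 overlapped scramble, and the anti-miR-223 arrays lay below all pre-miR-223 arrays; the pooled difference was -0.49 (95% interval -0.79 to -0.20), -0.39 after centring. Irf9, the DNA-binding part of the interferon-activated complex, differed by -0.35 and the antiviral synthetase Oas3 by -0.37, and Irf7, which drives interferon genes, by -0.37. Ifi35 (-0.32), Rtp4 (-0.32), Oasl1 (-0.33) and Parp9 (-0.29) were the other members past the unadjusted level. Sensors of nucleic acids and their adaptors were lower in 18 of 21, with 4 at an unadjusted p under 0.05 and a median of -0.13, -0.02 after centring. Among them Irf3, the factor that sensors switch on, read 4.83, 4.60, 4.59 and 4.55 in scramble, 4.30, 4.47, 4.26 and 4.31 in pre-miR-223, and 4.42, 4.20 and 4.46 in anti-miR-223. Its groups did not overlap, and the difference was -0.30 (95% interval -0.48 to -0.12), -0.19 after centring. Sting1, the adaptor of cytosolic DNA sensing, differed by -0.31 with overlapping groups (95% interval -0.64 to 0.01).

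Lipid genes followed the lean. All 19 cholesterol synthesis genes tested were lower, 6 at an unadjusted p under 0.05, with a median of -0.19, -0.08 after centring. Msmo1, a methylsterol oxidase that is also on the list of reported miR-223 targets, read 6.04, 6.34, 5.84 and 5.90 in scramble, 5.69, 5.99, 5.48 and 5.47 in pre-miR-223, and 5.71, 5.49 and 6.01 in anti-miR-223. Pre-miR-223 replicate 2 and anti-miR-223 replicate 3 overlapped scramble; the difference was -0.34 (95% interval -0.61 to -0.07), -0.23 after centring. Sc5d (-0.33) and Dhcr7 (-0.30), enzymes of the last steps, and Srebf2 (-0.23), which drives the pathway, were past the unadjusted level, while Hmgcs1 at its entry was at -0.01. Genes of LXR-driven cholesterol efflux were lower in 14 of 14, 4 at that level, median -0.14 and -0.04 after centring; Mylip, which marks the LDL receptor for degradation, differed by -0.33 (95% interval -0.55 to -0.12). Fatty acid synthesis was lower in 13 of 15, with 1 at that level and a median of -0.11, -0.00 after centring and 0.00 after cyclic loess.

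Macrophage identity genes were lower in 21 of 24 tested, 7 of them at an unadjusted p under 0.05, and in 14 of 24 after centring; the medians were -0.16 and -0.06. Fcgr1, the high-affinity receptor for IgG, read 6.13, 6.17, 6.14 and 5.95 in scramble, 5.54, 6.16, 5.59 and 5.62 in pre-miR-223, and 5.87, 5.82 and 5.92 in anti-miR-223. Pre-miR-223 replicate 2 stood with scramble and the other 3 pre-miR-223 arrays lay lowest; the difference was -0.31 (95% interval -0.55 to -0.07), -0.20 after centring. Fcer1g, the shared signalling chain of Fc receptors, differed by -0.48 with overlapping groups, Trem2 by -0.30 and Cd68 by -0.26. Antigen presentation was lower in 11 of 12 (1 at the unadjusted level, median -0.13, -0.02 after centring), and alternative activation in 3 of 4 (2 at that level, median -0.21, -0.10 after centring and -0.10 as deposited without scramble replicate 2). Osteoclast genes were lower in 11 of 13, 4 at the unadjusted level, with a median of -0.18, -0.07 after centring; the receptor Tnfrsf11a differed by -0.29 and the protease Ctsk by 0.14 (95% interval -0.08 to 0.36).

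Cell cycle genes were lower in most members, as were 82.9% of all genes. At an unadjusted p under 0.05, 18.8% of G1/S and 14.3% of G2/M genes were lower, beside 12.3% of all genes. G1/S and replication genes were lower in 31 of 32, 6 at an unadjusted p under 0.05, with a median of -0.16, -0.06 after centring, and G2/M genes in 26 of 28, 4 at that level, with a median of -0.13, -0.02 after centring and -0.07 as deposited without scramble replicate 2. Tk1, the thymidine kinase of S phase, read 7.28, 7.26, 6.98 and 6.94 in scramble, 6.60, 6.90, 6.65 and 6.69 in pre-miR-223, and 6.84, 6.75 and 6.92 in anti-miR-223. Its groups did not overlap, with anti-miR-223 replicate 3 within 0.02 of scramble replicate 4; the difference was -0.35 (95% interval -0.55 to -0.15), -0.24 after centring. Cdk4 (-0.29), Cdk2 (-0.28), the helicase subunits Mcm2 (-0.27) and Mcm5 (-0.26) and the mitotic kinase Aurka (-0.28) were also past the unadjusted level. Core histones were lower in 6 of 10 (3 at that level, median -0.08, 0.02 after centring), and their near-identical copies are uncertain. Targets of p53 were lower in 9 of 9 (3 at that level, median -0.10, 0.00 after centring), with Cdkn1a at -0.32 and Mdm2 at -0.30.

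Among the stress lists the NRF2 list had the lowest median and heat shock proteins the highest. The unfolded protein and integrated stress response was lower in 20 of 22, 2 at an unadjusted p under 0.05, with a median of -0.11, -0.00 after centring. Pdia6, a disulphide isomerase, read 8.95, 9.06, 8.73 and 8.86 in scramble, 8.63, 8.85, 8.59 and 8.48 in pre-miR-223, and 8.64, 8.59 and 8.86 in anti-miR-223. Its groups overlapped, and the difference was -0.24 (95% interval -0.44 to -0.04), -0.13 after centring; Ddit3, a stress-induced factor, was at 0.14. Heat shock proteins were lower in 8 of 9, 0 at that level, with a median of -0.06, 0.04 after centring. NRF2-driven antioxidant genes were lower in 16 of 17, 5 at that level, with a median of -0.15, -0.05 after centring. The glutathione peroxidase Gpx1 read 9.12, 9.02, 8.81 and 8.85 in scramble, 8.18, 8.75, 8.27 and 8.11 in pre-miR-223, and 8.57, 8.50 and 8.93 in anti-miR-223. Anti-miR-223 replicate 3 alone lay within the scramble range, and the difference was -0.47 (95% interval -0.77 to -0.17). Glycolysis and hypoxia genes were lower in 19 of 19, 3 at that level, with a median of -0.13, -0.02 after centring. Ero1a, the oxidase that recharges disulphide isomerases, read 6.92, 7.33, 6.90 and 6.85 in scramble, 6.84, 6.82, 6.82 and 6.78 in pre-miR-223, and 6.65, 6.56 and 6.63 in anti-miR-223. Its groups did not overlap, but the margin to pre-miR-223 was small outside scramble replicate 2; the difference of -0.27 (95% interval -0.48 to -0.06) was -0.17 after centring and -0.16 without scramble replicate 2, and a further probe set gave 0.13.

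Housekeeping and organelle lists showed the same lean. Ribosomal proteins were lower in 23 of 25, with 5 lower and 1 higher at an unadjusted p under 0.05 and a median of -0.18, -0.07 after centring; many have processed copies, so single values are uncertain. Rps18 was the higher one: 7.20, 7.21, 9.43 and 9.22 in scramble, 10.44, 8.21, 10.11 and 10.41 in pre-miR-223, and 9.44, 9.85 and 8.75 in anti-miR-223. Scramble replicates 1 and 2 and then pre-miR-223 replicate 2 were lowest; the difference was 1.34 (95% interval 0.32 to 2.35), 0.28 without both of those scramble arrays, and its further probe sets, at levels of 2.80 and 2.13, lay below the filter and are not compared. Lysosomal genes were lower in 23 of 25, 3 at the unadjusted level, with a median of -0.15, -0.04 after centring. Npc2, which hands cholesterol out of the lysosome, read 8.49, 8.66, 8.65 and 8.45 in scramble, 8.36, 8.48, 8.38 and 8.18 in pre-miR-223, and 8.22, 8.34 and 8.59 in anti-miR-223, a difference of -0.20 (95% interval -0.39 to -0.01) and -0.09 after centring, with overlapping groups. Respiratory chain genes were lower in 27 of 29 (3 at that level, median -0.13, -0.03 after centring), among them Ndufb9 at -0.42. Proteasome subunits were lower in 24 of 24 (1 at that level, median -0.10, 0.01 after centring). Endocytosis and membrane traffic genes were lower in 21 of 25 (4 at that level, median -0.15, -0.04 after centring and -0.07 as deposited without scramble replicate 2), led by the late endosome GTPase Rab7 at -0.44 and the tetraspanin Cd81 at -0.40.

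**Figure D5:**
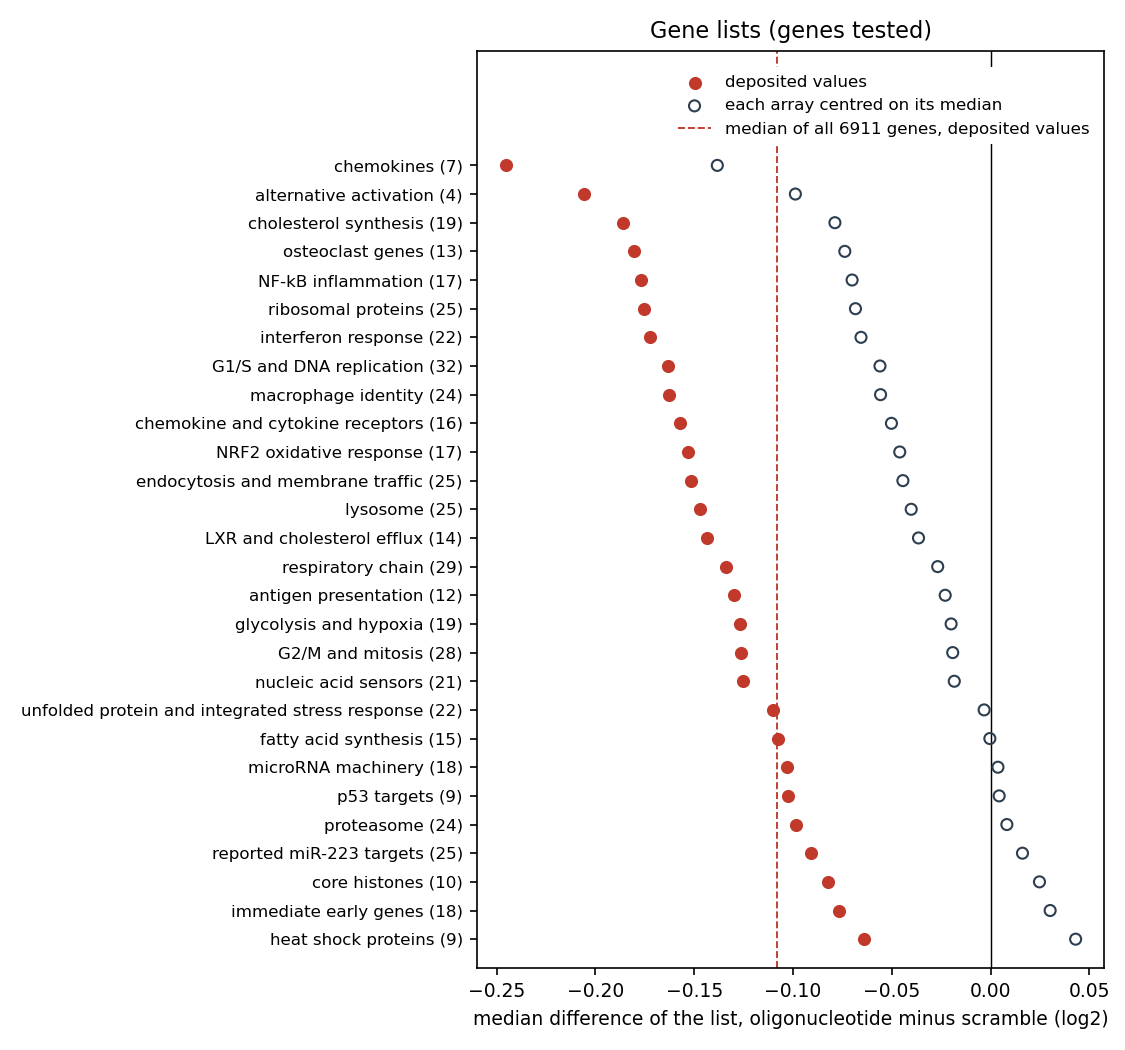
Median difference of each gene list, oligonucleotides minus scramble on the log2 scale, as deposited and after each array was centred on its median, with the number of genes tested beside each name and a dashed line at the median of all genes as deposited. As deposited every list median lies below 0, from -0.25 for chemokines to -0.06 for heat shock proteins; after centring chemokines are lowest at -0.14 and several lists lie at or above 0.

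Pre-miR-223 and anti-miR-223 were also compared with scramble one by one, in a model with 3 groups; these comparisons share the 4 scramble arrays, so their values are only set side by side. Pre-miR-223 had 0 genes called in limma (0.0%, lowest adjusted p 0.352), with 68 higher (0.984%) and 853 lower (12.3%) at an unadjusted p under 0.05; in 26 genes (0.376%) its arrays lay above all scramble arrays and in 178 (2.58%) below. Anti-miR-223 had 0 called (0.0%, lowest adjusted p 0.103), with 47 higher (0.68%) and 505 lower (7.31%) at that level, 42 genes (0.608%) above all scramble arrays and 442 (6.4%) below. Smaller groups separate completely more easily, and anti-miR-223 had 3 arrays where pre-miR-223 had 4. The shares of separated genes are therefore not compared between them. The median difference was -0.11 in each, with 5448 genes (78.8%) lower and 1463 (21.2%) higher in pre-miR-223, and 5536 (80.1%) lower and 1375 (19.9%) higher in anti-miR-223. Pre-miR-223 depended on 1 array: without its replicate 2, 402 genes were called in limma (lowest adjusted p 0.00981). In that fit 1894 genes were lower and 82 higher at an unadjusted p under 0.05. The median difference over all genes was then -0.16, and the fit was not repeated after centring.

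Set against each other directly, the mimic and the inhibitor gave no called gene. In limma 0 passed (0.0%, lowest adjusted p 0.927), 157 were higher (2.27%) and 181 lower (2.62%) in pre-miR-223 at an unadjusted p under 0.05, and the median difference was -0.00, with 3420 genes (49.5%) higher and 3491 (50.5%) lower. In 190 genes (2.75%) all pre-miR-223 arrays lay above all anti-miR-223 arrays and in 139 (2.01%) below. The intervals of the named genes show how far they could still differ: pre-miR-223 minus anti-miR-223 was 0.08 for Atp13a1 (95% interval -0.21 to 0.38), 0.26 for Ccl2 (-0.14 to 0.67) and 0.22 for Mef2c (-0.70 to 1.14). Epsti1 had the clearest gap, with pre-miR-223 at -0.29 and anti-miR-223 at -0.77 from scramble and 0.48 between them (95% interval 0.22 to 0.74, adjusted p = 0.927).

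The median difference varied between classes of gene span, in opposite directions for pre-miR-223 and anti-miR-223, and between RNA classes. Protein-coding genes were split into 5 classes of 1329 by the length of the gene on the genome: the median difference was -0.14 in the shortest class (0.30 to 8.89 kb) and -0.10 in the longest (65.11 to 869.52 kb), and 18.8% against 9.63% were lower at an unadjusted p under 0.05. With pre-miR-223 the medians were -0.18 in the shortest and -0.07 in the longest, and with anti-miR-223 -0.08 and -0.13. By level there was no such order: from log2 4 to 5 up to the brightest genes, the medians were -0.11, -0.11, -0.11, -0.10 and -0.11. The 68 small nucleolar RNAs, guides of ribosomal RNA modification, had a median difference of 0.08. Of these, 1 was higher and 1 lower at an unadjusted p under 0.05. Medians were 0.02 for 40 microRNA genes and -0.20 for 32 pseudogenes. The array medians of the small nucleolar RNAs, relative to the mean of the 11 arrays, were -0.23, -0.22, 0.22 and -0.03 in scramble. In anti-miR-223 replicate 4 it was -1.56. Scramble replicates 1 and 2, the low arrays of the genes higher by over 1.5-fold, were thus also the lowest scramble arrays for these RNAs, whose part in the differences was not tested.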

How the data were processed

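Whole-transcript Affymetrix arrays measured RNA of 12 samples. Values are log2 signals of 41345 probe sets, which the authors deposited as 1 table, made with Affymetrix Expression Console, RMA and Partek per the submitters' processing notes; versions and build are not given in the sources used here. Base 2 was assumed from the use of RMA and the range, 0.53 to 12.45. RMA equalises whole arrays, so the total RNA output is not visible.

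Gene names came from the platform annotation: 23521 probe sets had 1 symbol, 1814 several (not used) and 16010 none. For 1082 of 22180 symbols with several probe sets the brightest was taken. RefSeq (GRCm38.p6) matched 6889 of the 6911 genes tested.

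The pooled comparison was fitted by lmFit and eBayes of limma 3.58.1, under R 4.3.3 (no trend or robust option, 9 residual degrees of freedom, no covariates), two-sided, with adjustment over 6911 genes. Intervals are 95%. Named were, for each direction, the 8 genes of lowest p, leaving out predicted genes, small RNA genes and olfactory or vomeronasal receptors, and the member with the smallest p of each of 12 of the lists (28 genes in all); other genes are examples chosen after their values were seen. The genes, the pooling and the 28 pathway lists were chosen with earlier results of these data known. Lists share some genes, and 4 lists of markers of other cells had no gene above the level. The procedure was tested on simulated data with independent noise for each gene and no shift shared across an array. That test does not cover the lean of these data. Alternatives were other scalings, filters, weights, models and arrays left out. Arrays give no depth, and their number limits the precision.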

Additional observations from a re-analysis of the deposited data

Results flagged for a closer look

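Over the 28 named genes and the array medians, 87 groups of 4 arrays were examined. These were 29 of each of scramble, pre-miR-223 and anti-miR-223, the last with replicate 4. In 16 of the 87 groups 1 array lay far from the other 3. Chance alone gives such gaps in about 5% of independent groups. The groups here share their arrays, the genes were named by their p, and anti-miR-223 replicate 4 was known to stand apart. The 16 are therefore not judged against that rate. The 7 pooled oligonucleotide arrays gave 0 such gaps in 29. Anti-miR-223 replicate 4, the array left out, accounted for 8 of the 16. It was low for Zfp747 at 3.24 (others 4.53 to 4.72), Cln8 at 1.87 (5.33 to 5.58), Chp1 at 3.48 (5.55 to 5.67), Ehd1 at 4.37 (6.89 to 7.03), Chd3 at 2.09 (5.34 to 5.89) and Mef2c at 4.19 (7.75 to 8.24). It was high for Fcgr1 at 6.66 (5.82 to 5.92) and Ero1a at 7.30 (6.56 to 6.65). Pre-miR-223 replicate 2 was that array for 4 genes, and each time it lay nearer to the scramble mean than the other pre-miR-223 arrays did. Its Nfkbid level was 5.11 against 4.62 to 4.70 in the other pre-miR-223 arrays, and its Fcgr1 level 6.16 against 5.54 to 5.62. Its Chd3 level was 5.08 against 6.01 to 6.19, and its Rps18 level 8.21 against 10.11 to 10.44. Among scramble arrays, replicate 4 was high for Nfkbid at 5.26, with the others at 5.08 to 5.09, and replicate 1 was low for Ccl2 at 5.06, with the others at 5.71 to 5.81. Scramble replicate 2 was high for Ero1a at 7.33, with the others at 6.85 to 6.92, and had the highest array median over the genes tested, 5.82, with the others at 5.67 to 5.68. No named gene differed between pre-miR-223 and anti-miR-223 at an adjusted limma p under 0.05; the lowest over all genes tested was 0.927.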

How the results depend on the processing

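No gene was called in the pooled comparison under any of 23 alternatives and 1 added after seeing the data; the lowest adjusted limma p was 0.0528. The 660 values of the 28 named genes kept their direction and stayed uncalled. The 910 genes at an unadjusted p under 0.05 became 195 (8 higher, 187 lower) with anti-miR-223 replicate 4, 557 (278, 279) with median centring, 559 (278, 281) with quantile normalization, 562 (293, 269) with cyclic loess, 1774 (437, 1337) without the level filter and 1507 (77, 1430) with array weights. Without 1 array the count ran from 295 (without scramble replicate 2) to 1597 (without pre-miR-223 replicate 2), with 563 without scramble replicate 1. Without scramble replicates 1 and 2 together, the added alternative, it was 100 (9, 91). For pre-miR-223 against scramble, calls ran from 0 to 402 as single arrays were left out, the highest without pre-miR-223 replicate 2. Same-numbered arrays did not as a rule deviate together (correlations -0.394 to 0.41, over 0.1 in 2 of 10 pairs). Pairs with different numbers ran from -0.451, for scramble replicate 3 with pre-miR-223 replicate 2, to 0.463, for pre-miR-223 replicate 2 with anti-miR-223 replicate 3. Scramble replicate 2 correlated at 0.41 with pre-miR-223 replicate 2 and at 0.353 with anti-miR-223 replicate 3. With the replicate number as a block, 0 genes were called and 1149 lay at an unadjusted p under 0.05 (62 higher, 1087 lower, lowest adjusted limma p 0.28). Of 616 list medians, 570 moved by less than the spread between replicates and 46 by more, 44 of those under the 3 other scalings. Single arrays moved several list medians by over 1.5 times, with no change of sign. Without scramble replicate 2 the median was -0.06 for miR-223 targets, -0.06 for fatty acid synthesis, -0.11 for macrophage identity, -0.11 for G1/S genes, -0.07 for the unfolded protein response, -0.10 for the NRF2 list and -0.03 for immediate early genes. Without scramble replicate 1 it was -0.23 for cholesterol efflux, -0.13 for core histones and -0.19 for p53 targets, and without scramble replicate 3 it was -0.05 for core histones. Without pre-miR-223 replicate 4 it was -0.12 for NF-kB genes, -0.08 for nucleic acid sensors, -0.12 for osteoclast genes and -0.03 for heat shock proteins, the latter -0.11 without pre-miR-223 replicate 2.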
